A study of Oryza sativa with 6 samples.

Results

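The genes described here act in the breakdown and the signalling of abscisic acid (ABA) in rice leaves. They are 5 genes with 6 listed transcripts, out of 6535 genes and 7194 transcripts in the deposited expression table, and were picked by gene identifier and described role: an ABA 8'-hydroxylase (Os02g0703600), a protein phosphatase 2C similar to ABI2 (Os05g0592800, with 2 transcripts), the kinases SAPK2 (Os07g0622000) and SAPK3 (Os10g0564500), and a binding factor of ABA-responsive elements (Os02g0766700). Leaf messenger RNA was sequenced from rice plants aged 4 weeks, with 2 libraries in each of 3 genotypes. Wild type (WT) was nontransgenic. The overexpressors (OX) carried Osa-MIR171f, described as overexpressed in the whole body with no promoter named, and were line 3 (OX 1) and line 5 (OX 2). The mutants (KO) had mir171f knocked out with CRISPR-Cas9, and both libraries carry line number 2, so that KO stands for a single line as numbered. No drought, ABA or other stress treatment is named in the labels, and all plants were greenhouse-grown. Whether the 2 libraries of WT or of KO came from different plants is not stated. P-values therefore measure only the spread between these libraries, which may be technical.

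ABA is the plant hormone of water deficit: it closes stomata and switches on protective genes in drying leaves. It is made from carotenoids by 9-cis-epoxycarotenoid cleavage and is inactivated mainly by 8'-hydroxylation, so the leaf level depends on both steps. In the signalling core, receptors that have bound ABA inhibit clade A protein phosphatases 2C. This releases some SnRK2 kinases (the family is named SAPK in rice) to phosphorylate bZIP factors. These factors bind ABA-responsive elements in front of target genes such as dehydrins.

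Counts were scaled to the authors' effective library totals, 23869522 to 34214364 reads, and are given as CPM, counts per 1000000 reads of that total. The table is a selection by the authors: a transcript was listed if any of their 3 comparisons gave a change of 2-fold or more and an unadjusted p under 0.05. Among the 7034 transcripts tested, the quasi-likelihood test of edgeR, with p-values adjusted by the Benjamini-Hochberg method and called below 0.05, found 44.1% changed when OX was compared with WT, 36% for KO and WT, and 38.3% for OX and KO. No listed description matched a MIR171 precursor, so the modified gene itself is not analysed here. Leaf mesophyll markers were abundant in all libraries but unequal, with 39 transcripts summing to 112790 to 120170 CPM in WT, 45213 to 48534 in OX and 72861 to 73963 in KO. The 30 transcripts of dividing cells summed to 1485.9 to 1604.4, 837.52 to 847.6 and 635.36 to 648.55 CPM in the same order, the 19 of secondary wall and vasculature to 546 to 575, 531 to 566 and 492 to 505 CPM, and the 4 of pollen or anther to 12.3 to 14.5, 39.0 to 44.8 and 67.4 CPM in both KO libraries. These sums rest on the most abundant markers. By transcript, dividing-cell markers had 4 called higher and 8 lower in OX (median log2 fold change 0.17) and 8 higher and 9 lower in KO (-0.22). Those of secondary wall and vasculature had 8 higher and 1 lower in OX (median 1.20, with 5 higher without WT 2 or OX 1) and 4 higher and 1 lower in KO (0.91, with 2 higher without KO 1 or KO 2 and 7 without WT 1). Mesophyll markers had 0 higher and 33 lower in OX and 0 higher and 29 lower in KO. Of the 4 pollen or anther markers, 1 was called higher in OX and 2 in KO, with 0 lower. Over all tested transcripts, 25% were higher and 19% lower in OX (median 0.28). In KO 25% were higher and 11% lower (0.43). All these markers are listed transcripts and so were themselves selected for change. No root marker was matched, and no listed count was 0. In bulk leaf RNA, a change in the number of cells of a type and a change in RNA per cell cannot be told apart, and the part of these marker differences in the results below was not tested.

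All 6 transcripts were called in OX against WT, 5 of them higher and 1 lower, beside 25% of all tested transcripts called higher and 19% lower. In KO against WT, 3 were higher and 1 was lower, beside 25% and 11%. Between the modified genotypes, 1 was higher in OX than in KO and 3 were lower, beside 13.3% and 25%. The median log2 fold change of the 6 was 0.99, 1.41 and -0.65 in these comparisons, against 0.28, 0.43 and -0.41 over all tested transcripts. The comparisons with WT use the same WT libraries and are not independent of each other. The background itself depends on the scaling: in KO against WT, 1758 transcripts were higher and 776 lower with effective totals, 1111 and 1356 with DESeq2 size factors, and 1024 and 1423 with TMM. In OX against WT the split of 1762 higher and 1337 lower became 2342 and 968 with plain library totals, and in OX against KO the split of 934 and 1759 became 1278 and 1279 with DESeq2 size factors and 1330 and 1194 with TMM. The DESeq2 size factors and TMM were computed from the listed transcripts alone, all of which had been selected for change. They moved the median log2 fold change of all tested transcripts in KO against WT from 0.43 to -0.06 and -0.13. Calls lost or gained with them, here and below, carry that limit. No member transcript changed its sign under any of these scalings.

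**Figure D1:**
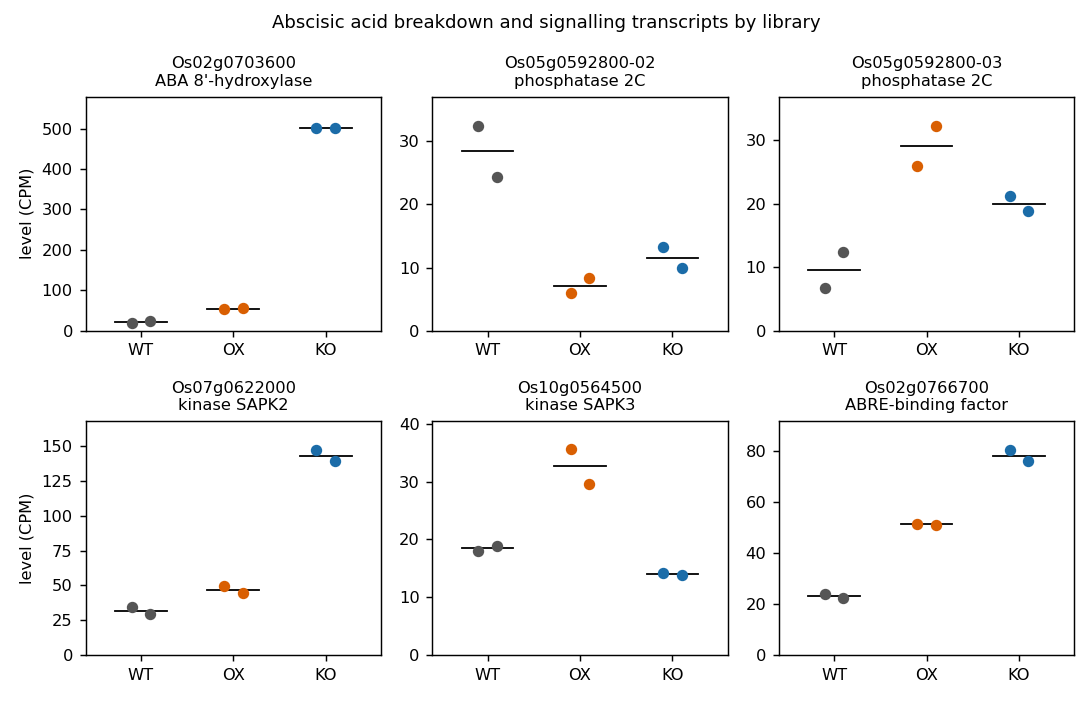
Level of each of the 6 transcripts in CPM in the 6 libraries, 1 point per library, with a short line at the mean of each group. The ABA 8'-hydroxylase reaches 502 and 500.3 CPM in the KO libraries, whereas the transcripts of the phosphatase gene exchange places between WT and OX.

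Breakdown of ABA was represented by Os02g0703600, described as similar to Abscisic acid 8'-hydroxylase 1, the cytochrome P450 that opens the main route of ABA inactivation (IRGSP-1.0, chromosome 2, 28995717 to 28998452). The WT libraries held 19.3 and 23.4 CPM of it, those of OX 52.2 and 56.0, and those of KO 502 and 500.3. The 3 groups did not overlap, WT being lowest and KO far highest. How many of all tested transcripts have groups without overlap was not counted. That holds for each lack of overlap given below, in groups of 2 libraries and a table selected for change. OX exceeded WT 2.53-fold, a log2 fold change of 1.34 (SE 0.10, adjusted p = 0.000853), and KO exceeded WT 23.5-fold (4.55, SE 0.11, adjusted p = 5.82e-05). The levels in OX and KO also differed (-3.21, SE 0.10, adjusted p = 9.55e-05). All 3 calls held under every alternative processing tried, each library left out included. Per transcript length, its mean TPM (its share of all transcripts, corrected for length) of 10.2 in WT ranked it above 78.0% of listed transcripts, and its 289.5 in KO above 98.1%.

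The other breakdown transcript in the table did not follow this pattern. Os09g0457100, a cytochrome P450 that the authors' annotation terms assign ABA 8'-hydroxylase activity (chromosome 9, 17252034 to 17255420), stood at 27.7 and 30.3 CPM in WT, at 19.5 and 19.7 in OX and at 50.6 and 46.1 in KO. OX was the lowest group and KO the highest, without overlap. The level was lower in OX than in KO (-1.30, SE 0.09, adjusted p = 0.000831), and that call held under every alternative. Against WT it fell in OX (-0.57, SE 0.09, adjusted p = 0.0146), but this did not pass with plain totals (adjusted p = 0.396), without WT 2 (0.0639), without OX 1 (0.0858) and without OX 2 (0.0809). It rose in KO (0.74, SE 0.09, adjusted p = 0.00629), a call lost with DESeq2 size factors (0.237), with TMM (0.482) and without KO 1 (0.0542).

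Synthesis genes of the same hormone moved in both directions. Os07g0154100, described as similar to Viviparous-14, a 9-cis-epoxycarotenoid dioxygenase of maize (chromosome 7, 2870686 to 2872829), was scarce in WT at 0.349 and 0.419 CPM. It measured 1.86 and 2.57 CPM in OX and 20.2 and 23.1 CPM in KO, so that the groups stood in the same order as for the 8'-hydroxylase Os02g0703600. The rises were called in OX (2.52, SE 0.25, adjusted p = 0.00264) and in KO (5.80, SE 0.27, adjusted p = 0.000211), as was the lower level in OX than in KO (-3.28, SE 0.22, adjusted p = 0.000746), each under every alternative. The most abundant synthesis transcript went the other way. Os02g0704000, a carotenoid oxygenase that the authors' terms place in ABA synthesis (chromosome 2, 29026099 to 29028176), stood at 1981 and 2193 CPM in WT, at 714 and 795 in OX and at 1048 and 1090 in KO. WT was highest and OX lowest, without overlap. It fell in OX (-1.47, SE 0.08, adjusted p = 0.000278) and in KO (-0.97, SE 0.07, adjusted p = 0.00115) under every alternative. This gene lies 27.6 kb beyond the 8'-hydroxylase Os02g0703600 on chromosome 2, with 0 listed transcripts between them.

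**Figure D2:**
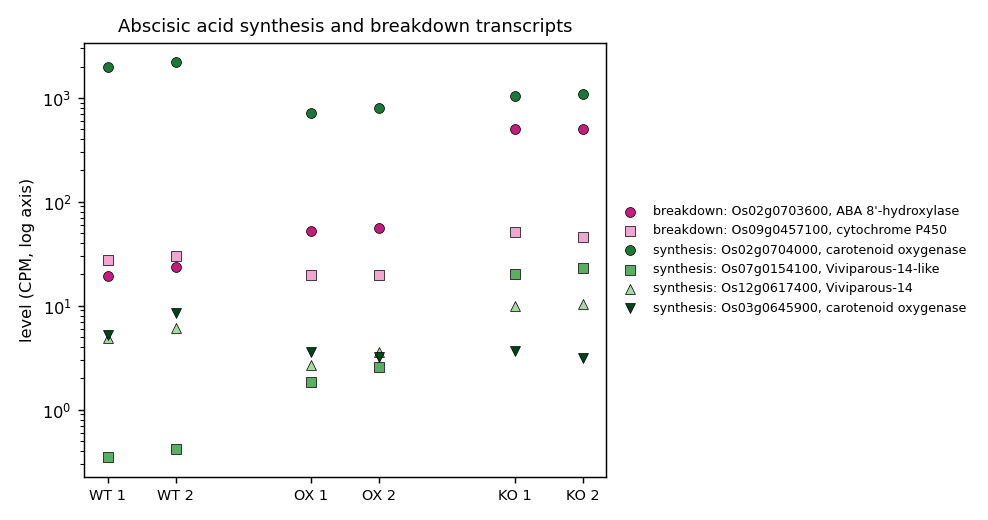
Levels in CPM, on a log axis, of the 2 breakdown transcripts and 4 of the 5 synthesis transcripts in each library, 1 point per library. Os02g0703600 and Os07g0154100 stand lowest in WT and highest in KO, and Os02g0704000 is highest in WT.

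The other synthesis transcripts gave weaker differences. Os12g0617400, described as Viviparous-14, was lower in OX (2.71 and 3.57 CPM) than in KO (9.89 and 10.5; -1.70, SE 0.22, adjusted p = 0.00811), a call lost without OX 1 (0.0507) and without KO 2 (0.0571). Its comparisons with WT, at 4.84 and 6.07 CPM, gave -0.80 in OX (adjusted p = 0.0987) and 0.90 in KO (0.0750). The first passed with DESeq2 size factors (0.0489), TMM (0.0427) and adjustment over listed transcripts (0.0253), and the second with plain totals (0.0324), the DESeq2 Wald test (0.0151) and that adjustment (0.0193). Os03g0125100, a beta-carotene hydroxylase of the carotenoid route, rose in KO (1.04, SE 0.22, adjusted p = 0.0454). This call was lost in 10 of 15 alternatives, among them DESeq2 size factors (0.309), TMM (0.387) and any 1 library left out. Os02g0704000 was lower in OX than in KO (-0.50, SE 0.07, adjusted p = 0.0125), but not with DESeq2 size factors (0.245), with TMM (0.408), without OX 1 (0.0588), without KO 1 (0.0656) and without KO 2 (0.0884). Of the 5 synthesis transcripts, 1 rose and 1 fell in OX, and 2 rose and 1 fell in KO. The OX shares, 20% in each direction, were near the 25% and 19% of all tested transcripts. With DESeq2 size factors or TMM the fallen were 2 in OX and 2 in KO, with 1 risen in each, and the KO rises became 1 with any 1 library left out. Os03g0645900, a carotenoid oxygenase, was not called, at -1.02 in OX (adjusted p = 0.110) and -1.01 in KO (0.133), though KO passed with DESeq2 size factors (0.0342) and with TMM (0.0254). The median log2 fold change of the class was -0.80 in OX and 0.90 in KO.

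The receptor list matched 1 transcript, Os03g0297600, a Streptomyces cyclase/dehydrase family protein. It is 1 of 5 listed transcripts that the authors' terms give ABA binding, and the other 4 were not on the receptor list: the pathogen-related protein JIOsPR10 (Os03g0300400), a Bet v I allergen family protein, a transcript similar to PR-10a, and Os04g0593400, whose description names no function. Os03g0297600 stood at 13.4 and 11.9 CPM in WT, at 5.48 and 6.34 in OX and at 18.8 and 19.4 in KO, with OX lowest and KO highest and no overlap. It fell in OX (-1.10, SE 0.14, adjusted p = 0.00578) and was lower there than in KO (-1.69, SE 0.14, adjusted p = 0.00137) under every alternative. Against WT, KO gave 0.60 (SE 0.13, adjusted p = 0.0588), which passed with plain totals (0.0200), with the DESeq2 Wald test (0.0105) and when adjusted over listed transcripts (0.0151), and was 0.04 with TMM. Of the 5 transcripts with the ABA binding term, 1 was higher and 3 were lower in OX, and 0 were higher and 1 lower in KO. The shares over all tested transcripts were 25% higher and 19% lower in OX, and 25% higher and 11% lower in KO.

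Os05g0592800 encodes a phosphatase described as similar to Protein phosphatase 2C ABI2, and ABI2 of Arabidopsis is a negative regulator of ABA signalling. Transcript 02 (chromosome 5, 29538463 to 29542015) is 2168 bases long, and transcript 03, 1916 bases long, spans 29538676 to 29541976 within it. Transcript 02 measured 32.4 and 24.4 CPM in WT, compared with 5.89 and 8.36 in OX and 13.2 and 9.91 in KO. Both modified genotypes lay below WT, and OX and KO did not overlap, OX being lower. It fell 3.99-fold in OX (-1.99, SE 0.26, adjusted p = 0.00727), a call that held under every alternative per transcript. In KO it fell by 1.30 on the log2 scale (SE 0.26, adjusted p = 0.0376), and this call was lost with plain library totals (0.0600), with replicate number as a block (0.0880) and without WT 1 (0.158), WT 2 (0.0673), KO 1 (0.0905) or KO 2 (0.192). The difference between OX and KO was -0.70 (SE 0.26, adjusted p = 0.255).

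Transcript 03 had the reverse order of groups. It stood at 6.70 and 12.4 CPM in WT, at 25.9 and 32.2 in OX and at 21.2 and 18.8 in KO, so that WT was lowest and OX highest, without overlap. It rose 3.05-fold in OX (1.61, SE 0.32, adjusted p = 0.0365). This call was lost with only OX and WT in the fit (0.0866) and without OX 1 (0.105), OX 2 (0.172), KO 1 (0.0818) or KO 2 (0.0809). In KO the difference from WT was 1.07 (SE 0.31, adjusted p = 0.150), which passed with the DESeq2 Wald test (0.0215), without WT 2 (0.0192) and when adjusted over the tested listed transcripts (0.0385). The authors' deposited table gives this comparison an adjusted p of 0.00593.

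The balance of the 2 transcripts changed, whereas no change in their sum was called with effective totals, the only scaling tested for it. Transcript 03 made up 17.1% and 33.7% of the gene's listed reads in WT, compared with 81.5% and 79.4% in OX, whereas KO had 61.6% and 65.5%. The WT libraries differed from each other more than those of OX or KO, yet both lay well below every OX and KO library. The summed level was 39.1 and 36.8 CPM in WT, compared with 31.8 and 40.6 in OX and 34.4 and 28.7 in KO, and its log2 fold change was -0.07 in OX (SE 0.14, adjusted p = 1) and -0.27 in KO (SE 0.14, adjusted p = 0.666). In CPM the groups overlapped for WT and OX. By TPM, transcripts 02 and 03 stood at 17.1 and 3.99 in WT 1 and at 12.7 and 7.25 in WT 2. In OX 1 they stood at 4.29 and 21.4, and in OX 2 at 5.99 and 26.2. Their sum by TPM was thus higher in both OX libraries than in either WT library, and was not tested. A test of transcript usage in edgeR over the 551 genes with 2 or more tested transcripts gave a change in the log2 ratio of transcript 03 to 02 of 2.50 in OX against WT (adjusted p = 0.00234) and 1.64 in KO against WT (adjusted p = 0.0183). Between OX and KO the ratio differed by 0.86 (adjusted p = 0.141). These comparisons called 13.2%, 9.44% and 7.99% of the 551 genes. The OX call held without the filter, with the replicate block and with each library left out (2.08 to 2.98), the alternatives run for this test. The KO call was lost without WT 1 (1.23, adjusted p = 0.0741), without KO 1 (1.73, 0.0835) and without KO 2 (1.57, 0.0974). Transcripts 02 and 03 overlap, and their separate counts are estimates that depend on how the authors assigned shared reads, a step not given in the sources used here.

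**Figure D3:**
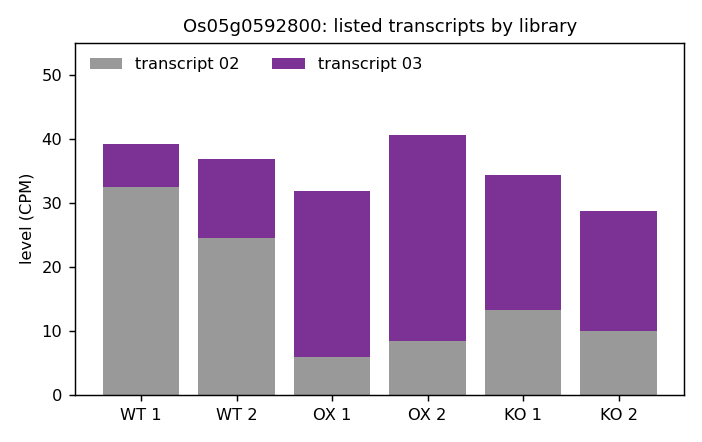
Transcripts 02 and 03 of the phosphatase gene Os05g0592800 in each library, as stacked levels in CPM. Transcript 03 holds 17.1% and 33.7% of the bar in WT and 81.5% and 79.4% in OX, while whole bars reach 28.7 to 40.6 CPM.

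Other phosphatases 2C were also called. Of the 6 tested transcripts of the class, those of Os05g0592800 included, 5 were higher and 1 lower in OX, 2 higher and 1 lower in KO, and the median log2 fold changes were 1.03 and 0.38. Over all tested transcripts, 25% were higher and 19% lower in OX, and 25% higher and 11% lower in KO. The 5 higher calls in OX became 3 without WT 1, WT 2, KO 1 or KO 2 and with TMM, 2 without OX 1 and with only OX and WT in the fit, and 1 without OX 2. The lower call in KO is that of Os05g0592800 transcript 02, and the lower calls there became 2 with DESeq2 size factors and 3 with TMM. Os01g0656200 rose in both, from 5.03 and 4.78 CPM in WT to 17.2 and 17.4 in OX (1.82, SE 0.11, adjusted p = 0.0005) and 15.0 and 15.9 in KO (1.65, SE 0.11, adjusted p = 0.000742), under every alternative. OX and KO differed in it by 0.16 (SE 0.11, adjusted p = 0.930). Os01g0513100, also similar to ABI2, stood at 7.13 and 6.03 CPM in WT, at 11.7 and 11.5 in OX and at 29.4 and 25.9 in KO. It rose in KO (2.07, SE 0.14, adjusted p = 0.000671) and was lower in OX than in KO (-1.26, SE 0.13, adjusted p = 0.00372). Its rise in OX (0.81, SE 0.14, adjusted p = 0.0168) was lost with TMM (0.0636), with OX and WT alone (0.0556) and without WT 2 (0.0648), OX 1 (0.0871) or OX 2 (0.0819).

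The remaining phosphatase genes were Os09g0325700 and Os01g0846300. Os09g0325700 was higher in OX than in KO (1.08, SE 0.13, adjusted p = 0.00523) under every alternative. Its rise over WT in OX (0.77, SE 0.13, adjusted p = 0.0157) was lost without WT 1 (0.0690), WT 2 (0.0740) or OX 2 (0.102). Os01g0846300 was higher in OX than in KO (1.93, SE 0.26, adjusted p = 0.0118) and than in WT (1.24, SE 0.26, adjusted p = 0.0438). The first call was lost without OX 1 (0.0715), OX 2 (0.0514), KO 1 (0.0776) or KO 2 (0.0507), and the second in 9 of 15 alternatives, among them without WT 1 (0.0924), OX 1 (0.203), OX 2 (0.124), KO 1 (0.0666) or KO 2 (0.0663). Os05g0572700, similar to ABI1, stayed at or below 0.351 CPM and was removed by the filter on low counts.

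The kinases SAPK2 and SAPK3 belong to the SnRK2 family, and their group patterns differed. Some members of this family carry the signal from the phosphatases to transcription factors. SAPK2 (Os07g0622000, chromosome 7, 25717837 to 25722009) stood at 34.3 and 29.1 CPM in WT, at 49.3 and 44.5 in OX and at 146.9 and 139.4 in KO. The groups did not overlap and KO was highest. It rose 4.52-fold in KO (2.18, SE 0.11, adjusted p = 0.000241) and was lower in OX than in KO (-1.61, SE 0.10, adjusted p = 0.000637), under every alternative. The 1.48-fold rise in OX (0.57, SE 0.10, adjusted p = 0.0221) did not hold with DESeq2 size factors (0.39, 0.101), with TMM (0.38, 0.163), with OX and WT alone (0.0629) and without WT 2 (0.0686), OX 1 (0.114), OX 2 (0.0564), KO 1 (0.0565) or KO 2 (0.0568).

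SAPK3 (Os10g0564500, chromosome 10, 22294896 to 22297645) was highest in OX instead. In WT it stood at 18.1 and 18.9 CPM, in OX at 35.8 and 29.6 and in KO at 14.1 and 13.8, with KO lowest and no overlap. It rose 1.77-fold in OX (0.82, SE 0.12, adjusted p = 0.0101), a call lost without WT 1 (0.0589). It was 2.34-fold higher in OX than in KO (1.23, SE 0.12, adjusted p = 0.00271) under every alternative. The difference of KO from WT was -0.40 (SE 0.12, adjusted p = 0.143), which passed with DESeq2 size factors (-0.89, 0.0101), with TMM (-0.96, 0.00811) and when adjusted over the tested listed transcripts (0.0368).

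Of the 4 SnRK2 transcripts tested, 4 were higher in OX, and 2 were higher and 0 lower in KO. Among all tested transcripts, 25% were higher in OX, and 25% were higher and 11% lower in KO. The 4 in OX became 2 without WT 2, OX 1 or OX 2. With DESeq2 size factors or TMM the KO counts became 1 higher and 2 lower, and with any 1 library left out 1 higher and 0 lower. The median log2 fold change was 0.87 in OX and 0.47 in KO. Os01g0869900, similar to SAPK4, resembled SAPK3: it stood at 19.5 CPM in both WT libraries, 37.7 and 35.3 in OX, and 18.9 and 16.3 in KO. It was higher in OX than in WT (0.91, SE 0.11, adjusted p = 0.00458) and than in KO (1.05, SE 0.11, adjusted p = 0.00306) under every alternative. KO differed from WT in it by -0.15 (SE 0.11, adjusted p = 1), which became -0.64 with DESeq2 size factors (0.0202) and -0.70 with TMM (0.0162). SAPK7 (Os04g0432000, transcript 02) was low, at 1.86 and 1.55 CPM in WT, at 4.50 and 4.09 in OX and at 3.60 and 3.62 in KO. Its rise in OX (1.33, SE 0.22, adjusted p = 0.0169) was lost without WT 2 (0.0785), OX 1 (0.103) or OX 2 (0.0752), and its rise in KO (1.08, SE 0.22, adjusted p = 0.0423) was lost without any 1 library (0.0950 to 0.174).

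**Figure D4:**
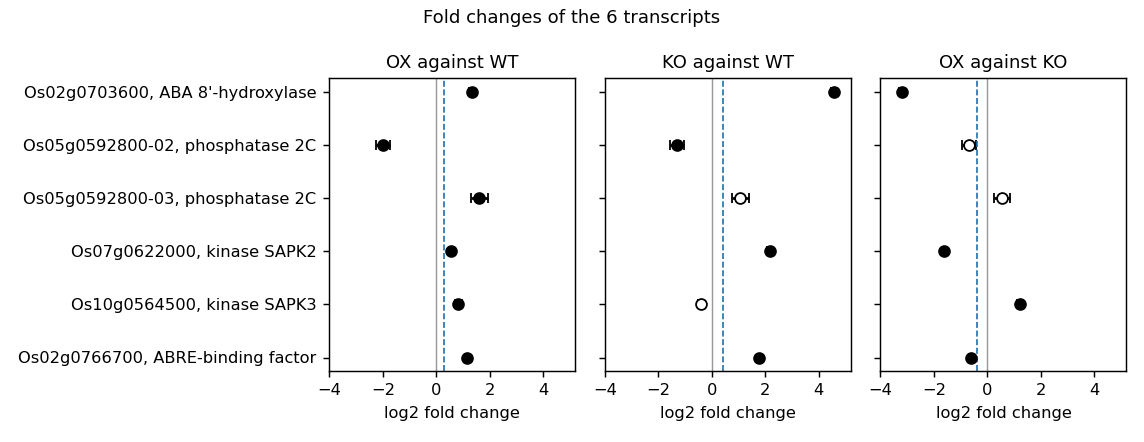
Log2 fold changes of the 6 transcripts in the 3 comparisons, with bars of 1 SE, filled where the adjusted p is below 0.05, and a dashed line at the median of all tested transcripts. The 8'-hydroxylase and SAPK2 are largest in KO against WT (4.55 and 2.18), and SAPK3 lies above 0 in OX against WT and below 0 in KO against WT.

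Os02g0766700, described as similar to the ABA-responsive elements-binding factor AREB2, is a bZIP-type activator of ABA response genes (chromosome 2, 32276662 to 32281580). WT held 24.0 and 22.3 CPM of it, OX 51.5 and 51.1, and KO 80.4 and 75.8. The groups did not overlap, and WT was lowest. It rose 2.22-fold in OX (1.15, SE 0.07, adjusted p = 0.000496) and 3.38-fold in KO (1.76, SE 0.07, adjusted p = 0.000158), under every alternative. It was lower in OX than in KO (-0.61, SE 0.07, adjusted p = 0.00523), a call lost with DESeq2 size factors (-0.29, 0.0914), with TMM (-0.24, 0.254) and without KO 1 (0.0507).

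Among the 4 listed binding factors of ABA-responsive elements and ABI3-related genes, 2 were called higher in each of OX and KO and 0 lower. Of all tested transcripts, 25% were higher in each, with 19% lower in OX and 11% in KO. With DESeq2 size factors or TMM KO had 1 higher and 1 lower, and with any 1 library left out 1 higher and 0 lower. The second was Os01g0867300, similar to an OSE2-like protein, with 8.02 and 8.84 CPM in WT, compared with 22.3 and 19.9 in OX and 14.5 and 13.0 in KO. It rose in OX (1.33, SE 0.13, adjusted p = 0.00236) under every alternative. Its rise in KO (0.71, SE 0.13, adjusted p = 0.0279) was lost in 10 of 15 alternatives, among them the omission of any 1 library (0.0597 to 0.166), and its higher level in OX than in KO (0.62, SE 0.13, adjusted p = 0.0407) was lost likewise (0.0541 to 0.236). Os06g0211200, similar to AREB1, differed by -0.35 in OX and -1.56 in KO and was not called (adjusted p = 1 and 0.107), but its KO value passed with DESeq2 size factors (-2.05, 0.0454), with TMM (-2.12, 0.0444) and when adjusted over listed transcripts (0.0276).

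Dehydrins and other late embryogenesis abundant (LEA) proteins, which protect cells as they dry, were listed with 14 transcripts, of which 12 were tested. In OX 4 were higher and 1 lower, and in KO 4 were higher and 0 lower, with median log2 fold changes of 0.24 and 1.24. The share called higher, 33.3% in each, was near the 25% of all tested transcripts. The 4 higher became 2 in OX without OX 2 and 2 in KO without KO 2, and with DESeq2 size factors or TMM KO had 2 higher and 2 lower. Os02g0669100, a dehydrin, rose in OX (0.62, SE 0.07, adjusted p = 0.00412) and in KO (1.35, SE 0.07, adjusted p = 0.000319) under every alternative, from a mean of 57.9 ± 4.29 CPM (SD, n = 2) in WT to 89.0 ± 0.176 and 147.8 ± 5.93. The dehydrin was lower in OX than in KO (-0.73, SE 0.07, adjusted p = 0.00255), a call lost with TMM (0.0748). These group levels stood in the same order as those of the binding factor Os02g0766700. That order was not general in the class. Os01g0963600 and Os11g0454300, described below, were lowest in OX, whereas some transcripts that were not called shared the order by their means. How common the order is among all transcripts was not counted, and a link between the dehydrin and the factor was not tested. Os05g0542500, a LEA-like protein with 2 listed transcripts, rose in both by transcript 02 (1.74, SE 0.16, adjusted p = 0.0017 in OX and 1.64, SE 0.16, adjusted p = 0.00243 in KO). Its transcript 01 rose in OX (3.05, SE 0.55, adjusted p = 0.0218), a call lost without OX 1 (0.0622), OX 2 (0.103), KO 1 (0.0536) or KO 2 (0.0533).

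Several transcripts of the class differed between OX and KO. Os01g0963600, of the ABA/WDS induced family, had 829 and 849 CPM in WT, compared with 316 and 327 in OX and 875 and 876 in KO. It fell in OX (-1.39, SE 0.04, adjusted p = 6.57e-05) and was lower there than in KO (-1.45, SE 0.04, adjusted p = 7.96e-05) under every alternative. Against WT, KO gave 0.06 (SE 0.04, adjusted p = 0.898), and its direction depended on the scaling. The value was -0.43 with DESeq2 size factors (0.00122), -0.50 with TMM (0.00102) and 0.26 with plain totals (0.00731). Os11g0454300, similar to RAB21, was lower in OX (6.49 and 6.17 CPM) than in KO (17.0 and 17.3; -1.44, SE 0.13, adjusted p = 0.00202). It rose over WT in KO (1.07, SE 0.13, adjusted p = 0.00591), a call lost with DESeq2 size factors (0.0661), with TMM (0.124), without KO 1 (0.0518) and without KO 2 (0.0549). Os03g0843300, of the LEA 2 family, rose in OX (1.23, SE 0.17, adjusted p = 0.00822), a call lost without OX 2 (0.0528). Its rise in KO (0.96, SE 0.17, adjusted p = 0.0241) was lost without WT 2 (0.0955), OX 1 (0.0597), OX 2 (0.0607) or KO 2 (0.111) and with DESeq2 size factors (0.285) or TMM (0.502). RAB 16C (Os11g0454000) was higher in OX than in KO (1.69, SE 0.33, adjusted p = 0.0335) and RAB 16B (Os11g0454200) lower (-1.98, SE 0.41, adjusted p = 0.0425), both at levels near 1 CPM. Both calls were lost without any 1 library. The RAB 16B call was also lost with DESeq2 size factors (0.0856), with TMM (0.101) and with plain totals (0.0636).

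Outside the 6 transcripts, the pathway held 31 listed transcripts of 30 genes, of which 28 were tested. In OX 12 were higher and 4 lower, in KO 11 were higher and 1 lower, and 5 were higher and 10 lower in OX than in KO. The shares in OX were 42.9% and 14.3%, beside 25% and 19% of all tested transcripts. In KO they were 39.3% and 3.57%, beside 25% and 11%, and in OX against KO 17.9% and 35.7%, beside 13.3% and 25%. The KO counts depended on the scaling and became 5 higher and 7 lower with DESeq2 size factors and 5 higher and 8 lower with TMM. The 11 higher in KO became 7 without WT 2, OX 1 or OX 2 and 6 without KO 1 or KO 2, the 12 higher in OX became 6 without OX 2, and the 5 higher in OX than in KO became 3 without WT 1 or WT 2 and 2 without any 1 of the other libraries. Their median log2 fold changes were 0.56, 1.03 and -0.53, beside 0.28, 0.43 and -0.41 over all tested transcripts.

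**Figure D5:**
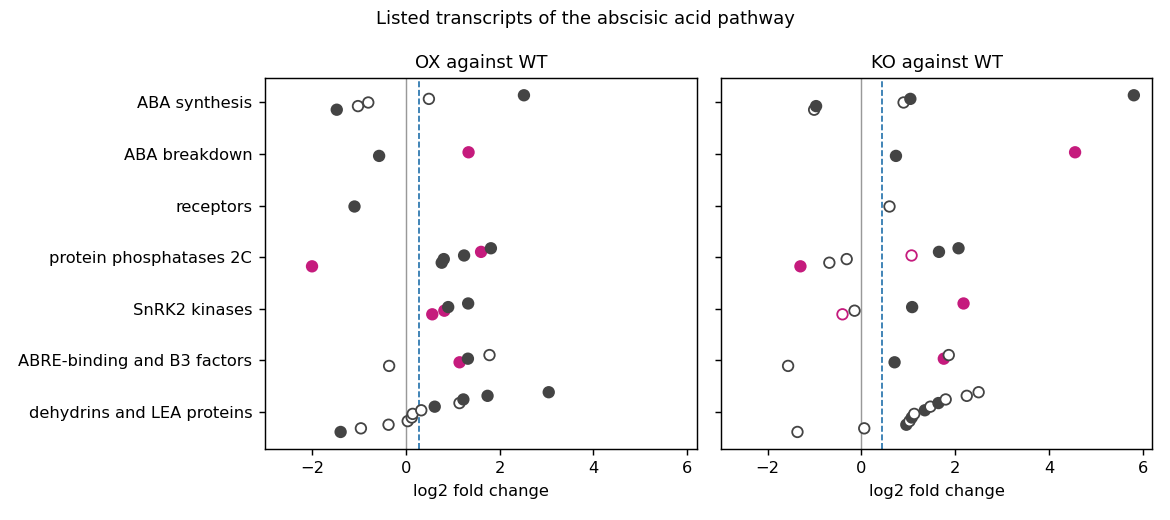
Log2 fold change from WT of each tested pathway transcript by role, in OX (left) and KO (right), with the 6 described transcripts in magenta, filled points where the adjusted p is below 0.05, and a dashed line at the median of all tested transcripts. In KO the synthesis transcript Os07g0154100 (5.80) and the 8'-hydroxylase Os02g0703600 (4.55) lie farthest to the right, and both panels use the same WT libraries.

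The levels of the 6 transcripts can be ranked among themselves only per length. By mean TPM in WT, SAPK2 was highest at 25.4, followed by SAPK3 at 16.1, phosphatase transcript 02 at 14.9, the binding factor at 14.4, the 8'-hydroxylase at 10.2 and phosphatase transcript 03 at 5.62. SAPK3, transcript 02 and the binding factor lay within the spread of transcript 02 (SD 3.15). In OX the order was SAPK2 at 52.2, the binding factor at 44.1, SAPK3 at 39.5 (SD 5.70), the 8'-hydroxylase at 35.8, transcript 03 at 23.8 and transcript 02 at 5.14, and SAPK3 did not stand apart from either neighbour. In KO the 8'-hydroxylase led at 289.5, ahead of SAPK2 at 138.7 and the binding factor at 58.5. SAPK3 at 14.7 and transcript 03 at 14.3 (SD 1.12) did not differ beyond their spread there, and transcript 02 was lowest at 7.28.

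Across the 6 libraries, log2(CPM + 1) of the 8'-hydroxylase and of SAPK2 had a Pearson correlation of 0.991, and each correlated with the binding factor at 0.913 and 0.902. SAPK3 ran against both, at -0.527 and -0.547, and the phosphatase transcripts against each other at -0.919. These values describe 3 groups of 2 libraries that share their scaling, and carry no test. The transcripts most alike to the 8'-hydroxylase were those of Os03g0276500, an HSP70-like protein (0.99992), and Os05g0537100, WRKY transcription factor 10 (0.99931). Closest to the binding factor were Os01g0110500, a protein kinase, and Os03g0741100, a bHLH protein (both 0.999). For SAPK2 they were Os08g0119500, a methyltransferase, and Os11g0168600, a kinase (both 0.999). SAPK3 was most like Os06g0651200, a conserved hypothetical protein (0.998), and Os04g0409900, a neutral invertase (0.993). Phosphatase transcript 03 was most like Os08g0127100, an amino acid transporter (0.993), and Os04g0401700, the potassium transporter OsHAK1 (0.988), and transcript 02 was most like Os09g0293500, a kinase (0.996), and Os04g0446100 (0.995).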

How the data were processed

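Poly(A) RNA of rice leaves was extracted with an RNeasy kit and made into TruSeq stranded libraries, per the labels' protocols. Per the submitters' processing notes the build was IRGSP-1.0. Aligner, counter, use of strand and the authors' test were not given in the sources used here. Estimated counts were deposited per transcript as whole numbers and match the deposited FPKM, scaled by the authors to length and depth, converted back to reads and rounded up. The deposited TPM values were scaled by the authors over all transcripts. The authors' log2 normalised values gave their effective library totals. Listed transcripts held 24.3% to 31.0% of each library's reads. The authors' deposited signed fold changes are a score in which falls are negative, and their deposited p-values are raw and adjusted over 27384 transcripts.

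Counts were tested with edgeR 4.0.16 (R 4.3.3), its quasi-likelihood test with robust dispersion, in 1 fit of the 6 libraries by group, with effective totals as library sizes. After filterByExpr 7034 transcripts remained and 160 were out. Benjamini-Hochberg adjustment ran over the 27384 transcripts, those outside the table counting as larger. Transcript usage was tested with diffSpliceDGE and adjusted over 551 genes. The common dispersion was 0.0847. Alternatives of scaling were DESeq2 1.42.0 size factors, TMM and plain totals. Size factors and TMM were computed from the listed transcripts alone. Alternatives of testing were the DESeq2 Wald test, no filter, no robust dispersion, a replicate block and only the 2 groups compared. Adjustment over listed transcripts, sums of the listed transcripts per gene and each library left out were also run. The procedure was tested on simulated data. Libraries of a group differed beyond sampling noise (chi-square per degree of freedom 14.5 to 20.3). Intervals and SE cover these libraries only.

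The members, the pathway lists and the marker lists were chosen with earlier results of these data known. Named are all members, each listed pathway transcript called in any comparison, and for each member the 2 transcripts of highest Pearson correlation. Os06g0211200, Os03g0645900, Os05g0572700 and the other transcripts with an ABA binding term were named after their values were seen.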

Additional observations from a re-analysis of the deposited data

Results flagged for a closer look

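The breakdown transcript Os09g0457100, a cytochrome P450 with an ABA 8'-hydroxylase term, moved in opposite directions from WT, with a log2 fold change of -0.57 in OX and 0.74 in KO. The transcript was flagged because its effects from WT had opposite signs and its calls against WT and between OX and KO passed. Neither these directions nor these calls are therefore separate evidence. The test of OX against KO gave -1.30 (SE 0.09, adjusted p = 0.000831 by the edgeR quasi-likelihood test, Benjamini-Hochberg). Both OX libraries lay below both WT and both KO libraries. The calls against WT depended on the scaling. That in OX was lost with plain totals (-0.20, adjusted p = 0.396), and that in KO with TMM (0.18, adjusted p = 0.482). Groups of 2 libraries are too small for a check of single outlying libraries.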

How the results depend on the processing

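No member value changed its direction under any alternative run per transcript. Summed per gene over its listed transcripts only, Os05g0592800 gave -0.07 in OX and -0.27 in KO against WT, where its transcript 03 alone was positive. In OX against KO the sum gave 0.20, where its transcript 02 alone was negative. The 5 members called higher in OX against WT became 3 with only the 2 groups compared and 3 to 4 with a library left out, and the 1 called lower became 0 with counts summed per gene. The 1 member called lower in KO against WT became 2 with DESeq2 size factors, 2 with TMM, 2 when adjusted over listed transcripts, 0 with plain library totals, 0 with counts summed per gene, 0 with the replicate block, and 0 to 1 with a library left out. The change of the log2 ratio of phosphatase transcripts in KO against WT ranged from 1.23 to 2.13 with a library left out.

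No sign of pairing by replicate number was seen: deviations of same-numbered libraries correlated at 0.0771 (WT and OX), 0.0232 (WT and KO) and 0.0159 (OX and KO). These values cannot show whether same-numbered libraries were handled together, and the OX libraries also differ by line. With the replicate block the ratio changes were 2.51, 1.68 and 0.82 in the 3 comparisons.

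Over all transcripts, the 1762 called higher in OX against WT became 1131 without OX 1 and 1097 without OX 2, and the 1337 lower 882 without OX 1. In KO against WT the 1758 higher became 1112 and 1133 without KO 1 and KO 2, and the 776 lower became 1264 adjusted over listed transcripts, 494 without WT 2 and 433 and 449 without KO 1 and KO 2. In OX against KO the 934 higher became 1460 adjusted over listed transcripts and 498, 497, 504 and 502 without OX 1, OX 2, KO 1 and KO 2, and the 1759 lower became 1087, 1168, 1114 and 1083. Plain totals, DESeq2 size factors and TMM shifted the median of all log2 fold changes by 0.38, -0.18 and -0.19 in OX against WT, by 0.20, -0.49 and -0.56 in KO against WT and by 0.17, 0.32 and 0.37 in OX against KO. The causes of these changes were not tested. The table holds only transcripts that the authors selected for change, KO has 1 line number, and 2 libraries a group leave the spread to be shared across groups.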

Other observations

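The authors' deposited table of annotation terms lists 53 of 205 entries for response to abscisic acid (adjusted p = 0.611), 30 of 117 for the abscisic acid-activated signalling pathway (0.759) and 39 of 112 for response to water deprivation (0.0451), the table naming no direction. Of the 53 transcripts under response to abscisic acid, 52 were tested, with 21 higher and 9 lower in OX against WT, 25 higher and 4 lower in KO against WT, and 6 higher and 23 lower in OX against KO. The shares in OX were 40.4% and 17.3%, beside 25% and 19% of all tested transcripts. In KO they were 48.1% and 7.69%, beside 25% and 11%, and in OX against KO 11.5% and 44.2%, beside 13.3% and 25%. The KO counts became 20 and 9 with DESeq2 size factors, 18 and 9 with TMM, 17 and 2 without KO 1 and 21 and 2 without WT 2, and the 6 became 3 without OX 1, OX 2, KO 1 or KO 2. The median log2 fold changes were 0.62, 1.08 and -0.78, beside 0.28, 0.43 and -0.41 over all tested transcripts. The binding factor Os02g0766700, phosphatase transcript Os05g0592800-03 and SAPK2 are among them.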
